A study of Mus musculus with 20 samples.

Results

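The platelet-derived growth factor (PDGF) family in mouse comprises 4 ligand genes, Pdgfa, Pdgfb, Pdgfc and Pdgfd, and 2 receptor genes, Pdgfra and Pdgfrb. These 6 genes were taken by name from a table of 52783 genes, and all 6 were found. They were measured by RNA sequencing in CD45+ and CD45- cells sorted from tumours of 2 mouse mammary carcinoma cell lines, 66cl4, which is metastatic, and 67NR, which is not. Female BALB/cJ mice of 8 to 12 weeks received 1000000 cells of 1 line in the mammary fat pad, and the tumours were taken 21 to 26 days later. Both gates were sequenced from each of 5 animals per line, which gives 4 groups of 5 libraries and 20 libraries in all. No drug or genetic change was applied, and the hosts were immunocompetent. Each tumour type is a single cell line grown in several animals, so the spread between libraries is that between animals and not between independently arisen tumours. CD45 is the surface protein of leukocytes, so CD45+ libraries hold immune cells, and CD45- libraries hold tumour cells together with fibroblasts, vessel cells and other stroma, which were not separated from one another.

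The family was chosen with results of these data in view. Pdgfc had been noted as lower in 66cl4 than in 67NR CD45+ cells. It had also been noted as higher in CD45+ than in CD45- cells of 67NR tumours, where the log2 difference found here was only 0.06. The values of Pdgfc in both comparisons are therefore given as a description without a test, as is the interaction of tumour and gate for this gene. Tests are given for the other genes and for Pdgfc in the remaining comparisons.

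PDGF ligands are secreted as dimers that bring together receptor tyrosine kinases on the receiving cell. The product of Pdgfa acts through PDGFR-alpha, and that of Pdgfb acts through both receptors. PDGF-C and PDGF-D carry an amino-terminal CUB domain and are secreted in a latent form until a protease, such as tissue plasminogen activator for PDGF-C or urokinase and matriptase for PDGF-D, removes it. PDGF-C acts mainly through PDGFR-alpha and PDGF-D mainly through PDGFR-beta. In tissues, PDGFR-alpha marks fibroblasts and other mesenchymal cells and PDGFR-beta marks fibroblasts, pericytes and vascular smooth muscle, whereas PDGF-B from endothelial cells recruits pericytes to new vessels.

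Pdgfc and Pdgfd, the latent ligands, were both lower in 66cl4 than in 67NR CD45- cells, and Pdgfa was not. The promoter windows of these 3 genes are shown for that reason, from RefSeq on GRCm38.p6, from 250 bases before to 50 bases after an annotated start. Capitals mark GGGCGG (a GC box), TATAAA or TGANTCA (an AP-1 site) on either strand, motifs that do not overlap one another here. The Pdgfc window lies at chr3:81036166-81036465 on the plus strand and the Pdgfd window at chr9:6168236-6168535 on the plus strand. Pdgfa has 2 starts in the table, and the window shown lies at chr5:138994232-138994531 on the minus strand.
Pdgfc: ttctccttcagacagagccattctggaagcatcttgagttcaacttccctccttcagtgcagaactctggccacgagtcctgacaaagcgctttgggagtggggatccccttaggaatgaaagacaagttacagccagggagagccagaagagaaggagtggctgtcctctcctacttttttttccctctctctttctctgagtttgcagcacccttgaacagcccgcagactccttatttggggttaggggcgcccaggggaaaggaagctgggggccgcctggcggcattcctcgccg
Pdgfd: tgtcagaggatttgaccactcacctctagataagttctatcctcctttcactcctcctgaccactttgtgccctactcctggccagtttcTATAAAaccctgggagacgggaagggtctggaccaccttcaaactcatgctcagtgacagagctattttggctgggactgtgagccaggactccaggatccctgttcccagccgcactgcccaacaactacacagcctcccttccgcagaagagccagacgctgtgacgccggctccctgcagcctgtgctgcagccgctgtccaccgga
Pdgfa: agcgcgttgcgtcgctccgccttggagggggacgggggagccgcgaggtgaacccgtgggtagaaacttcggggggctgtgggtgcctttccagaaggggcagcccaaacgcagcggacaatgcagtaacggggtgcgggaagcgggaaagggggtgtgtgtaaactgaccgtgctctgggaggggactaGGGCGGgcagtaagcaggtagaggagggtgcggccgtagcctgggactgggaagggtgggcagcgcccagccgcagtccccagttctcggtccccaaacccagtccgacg
The Pdgfc window held none of the 3 motifs, the Pdgfd window held 1 TATAAA, and the Pdgfa window shown held 1 GGGCGG. Of 32851 promoter windows of this length, 35.7% held GGGCGG, 13.6% held TATAAA and 7.81% held TGANTCA. CG dinucleotides numbered 8 in the Pdgfc window and 8 in the Pdgfd window, near the median of 7 over all windows, and 24 in the Pdgfa window shown, more than in 80.0% of all windows. The window at the other Pdgfa start, which is not printed, held 2 GGGCGG and 37 CG dinucleotides, more than in 94.4% of all windows. These are descriptions of the letters in these windows and not of binding.

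Total estimated counts per library were 12960000 to 28080314, and a count of 0 allows a share of up to 1.07e-05 to 2.31e-05% of a library, a limit that covers only counting error. Ptprc, which encodes CD45, had more RNA in CD45+ than in CD45- cells of every animal, by 112 to 1932 times in 66cl4 and by 33.6 to 149 times in 67NR tumours. In 66cl4 animals 5 and 6 the cell type field names the opposite gate to the library title. Titles were followed here, Ptprc went with the titles, and every comparison was repeated without these animals. CD45- libraries of both tumours held RNA of the fibroblast list (12 genes, summed normalised counts of 6781 to 12018 in 66cl4 and 12125 to 20610 in 67NR). The epithelial list (12 genes) summed to 6153 to 6895 in 66cl4 and to only 169 to 587 in 67NR CD45- libraries. The keratin Krt8, with a mean of 5353, made up most of the 66cl4 sum. Levels of single genes are normalised counts, that is estimated counts divided by size factors, and are given in the order of animals 3, 4, 5, 6 and 7 for 66cl4 and 1, 4, 5, 6 and 7 for 67NR. In bulk RNA, fewer cells of a type and less RNA per cell cannot be told apart.

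**Figure D1:**
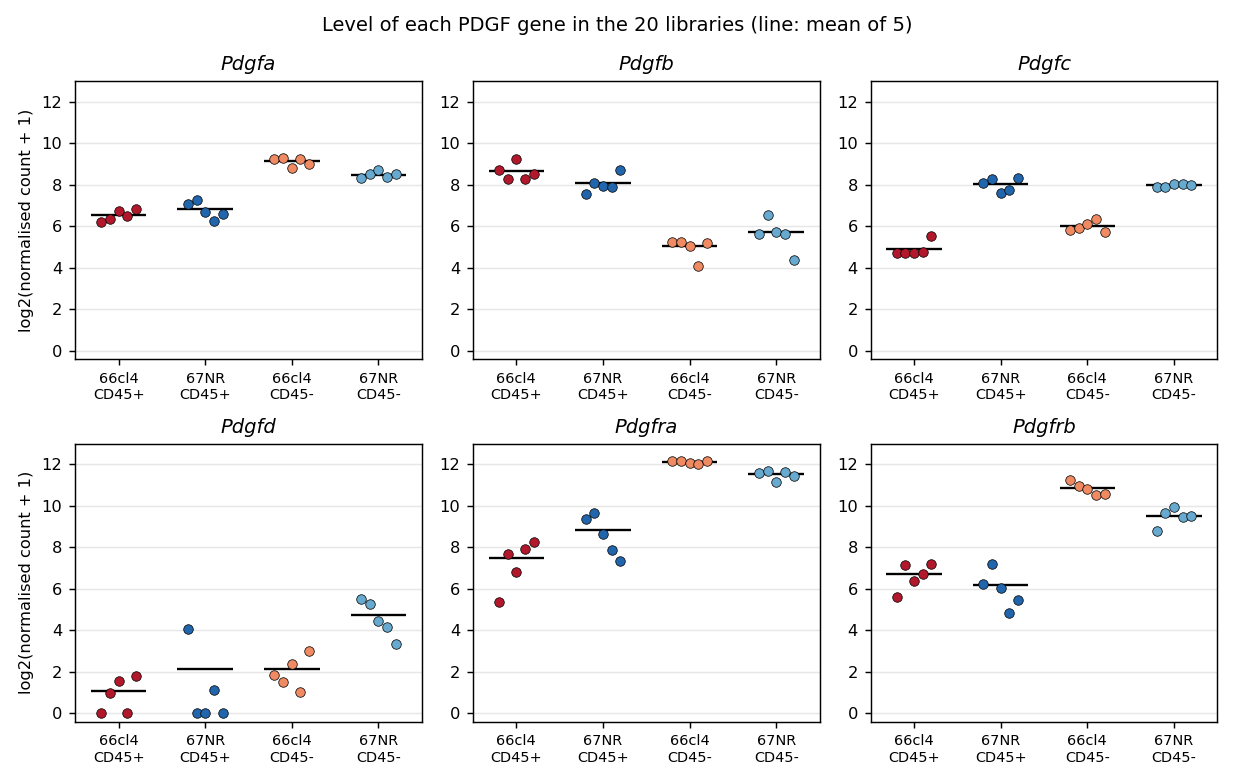
Level of the 6 PDGF genes in each library, as log2 of the normalised count plus 1, by tumour and gate, with a line at the mean of the 5 libraries. Both receptors and Pdgfa sit higher in CD45- libraries, Pdgfb sits higher in CD45+ libraries, and Pdgfc separates the tumours in both gates.

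The first question was how the family differed between the tumours outside the immune compartment. In CD45- cells, both receptors and Pdgfa had higher levels in 66cl4 tumours, and Pdgfc and Pdgfd had lower levels. A gene was called when its adjusted p-value (edgeR's quasi-likelihood test with Benjamini-Hochberg adjustment over all genes tested) was under 0.05 and its absolute log2 fold change was over 1. Of the 6 genes, 1 was called higher (Pdgfrb) and 2 lower (Pdgfc and Pdgfd, each with a limit given beside its values), against 32.2% of all 14844 genes tested in either direction, 13.2% higher and 18.9% lower. The 5 libraries of each tumour did not overlap for 5 of the 6 genes, where 52.9% of all genes did not overlap.

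Pdgfrb, the receptor of pericytes and fibroblasts, had levels of 2420, 1973, 1834, 1488 and 1550 in 66cl4 CD45- libraries. Those in 67NR were 447, 809, 983, 706 and 727. Every 66cl4 library was above every 67NR library. The means were 1853 ± 374 (SD, n = 5) and 735 ± 194 (SD, n = 5), a 2.52-fold difference, and the log2 fold change was 1.37 (SE 0.191, edgeR adjusted p = 3.51e-05).

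Pdgfra, the receptor for PDGF-A and PDGF-C and the most abundant family member per length in CD45- cells, had levels of 4541, 4645, 4257, 4167 and 4594 in 66cl4. In 67NR CD45- libraries they were 3130, 3331, 2305, 3226 and 2774. The groups did not overlap, and the 66cl4 libraries were close together. The means of 4441 ± 214 (SD, n = 5) and 2953 ± 419 (SD, n = 5) differed 1.504-fold, with a log2 fold change of 0.62 (SE 0.0994, edgeR adjusted p = 7.77e-05) that lay under the fold threshold.

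The marker lists of the stromal cells that carry these receptors went the other way. Of the mural cell list (pericytes and smooth muscle), 10 of 12 genes were tested, of which 9 were lower in 66cl4 CD45- cells and 0 higher, and the median fold change was -1.77 (log2). In edgeR 9 of the tested mural genes had an unadjusted p under 0.05, and DESeq2 called 9. Des, an intermediate filament of pericytes and muscle, fell by 4.16 on the log2 scale (SE 0.301, edgeR adjusted p = 5.32e-08). Of the fibroblast list, 8 of 12 genes were lower and 1 was higher, with a median of -1.34. Dpt, a matrix protein of fibroblasts, fell by 6.86 (SE 0.217, edgeR adjusted p = 1.41e-11), and Islr, a mesenchymal surface protein, rose by 6.02 (SE 0.345, edgeR adjusted p = 4.92e-08). The endothelial list had 11 of 12 genes lower, with a median of -3.25. Over all genes tested the median was -0.0091. The mural list summed to between 539 and 1429 in 66cl4 CD45- libraries and to between 1734 and 5912 in those of 67NR. Of the epithelial list, 7 of 12 genes were tested, of which 3 were higher and 1 was lower, with a median of 1.49. Krt8, a keratin of luminal epithelium, rose by 6.47 (SE 0.274, edgeR adjusted p = 9.41e-10) in the same libraries. Epcam, an epithelial adhesion protein, fell by 1.41 (SE 0.515, edgeR adjusted p = 0.0267). The part of cell composition in the receptor difference was not tested.

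**Figure D2:**
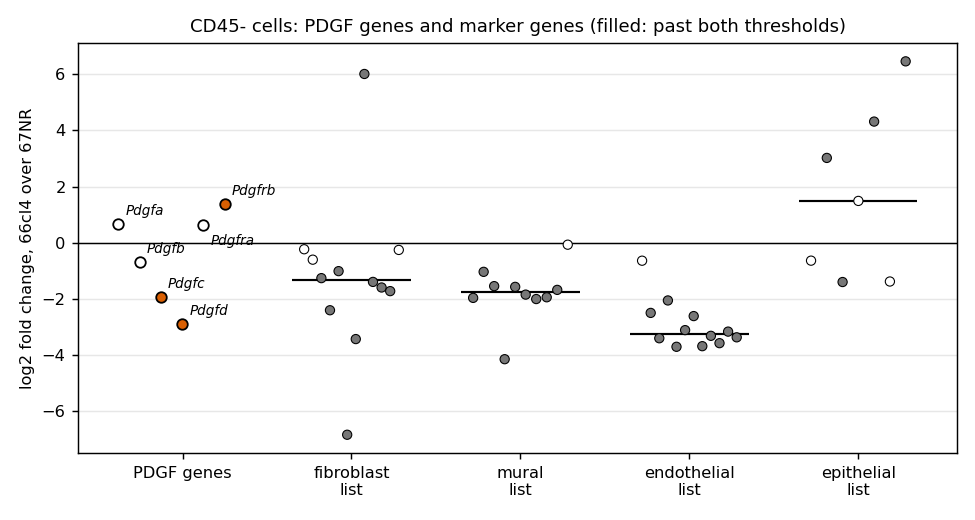
Log2 fold change between 66cl4 and 67NR CD45- cells for the 6 PDGF genes and for the tested genes of 4 marker lists, with filled points past both thresholds and a line at the list median. Pdgfrb at 1.37 and Pdgfra at 0.62 lie above 0, whereas the mural, fibroblast and endothelial medians lie at -1.77, -1.34 and -3.25.

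Among the ligands, Pdgfc, the latent ligand of PDGFR-alpha, gave 55.7, 59.2, 69.1, 80.7 and 51.9 normalised counts in 66cl4 CD45- libraries. The 67NR libraries gave 239, 239, 257, 262 and 253. The 67NR libraries were close together, and the highest 66cl4 value was far under the lowest 67NR value. The means of 63.3 ± 11.6 (SD, n = 5) and 250 ± 10.7 (SD, n = 5) differed 3.94-fold, and the log2 fold change was -1.94 (SE 0.135, edgeR adjusted p = 1.87e-08). This comparison shares its 67NR libraries with the comparison of the gates for which the gene was chosen. Without 66cl4 animals 5 and 6 the ratio of 66cl4 to 67NR was 0.223 in place of 0.254.

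Pdgfd, the latent ligand of PDGFR-beta, was scarce, with levels of 2.65, 1.87, 4.16, 1.06 and 6.99 in 66cl4 CD45- libraries. In 67NR CD45- libraries they were 44.8, 38.3, 21.1, 17.2 and 9.20. The groups did not overlap, although the 67NR libraries differed widely among themselves. With 1 to 7 estimated counts in 66cl4 and 9 to 51 in 67NR libraries, the gene passed the low count filter only through the group where it is high, so its call carries that limit. The log2 fold change was -2.91 (SE 0.518, edgeR adjusted p = 0.000199), and the means of 3.35 ± 2.33 (SD, n = 5) and 26.1 ± 14.9 (SD, n = 5) differed 7.80-fold. The summed endothelial list of the same 67NR libraries was 3610, 5407, 2145, 2350 and 1292, so the 2 libraries with most Pdgfd were those with most endothelial RNA and the library with least Pdgfd had the least. The mast cell list stood in the reverse order of Pdgfd over these libraries, at 590, 624, 6261, 7651 and 22699. The library with least Pdgfd, animal 7, also had the lowest mural, macrophage, T cell, NK cell and dendritic cell sums of the group. The part of any cell type in the Pdgfd difference was not tested.

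Pdgfa, the ligand specific to PDGFR-alpha, gave 605, 626, 449, 597 and 517 normalised counts in 66cl4 CD45- libraries. The 67NR libraries gave 316, 366, 412, 329 and 364. The groups did not overlap. The log2 fold change was 0.68 (SE 0.113, edgeR adjusted p = 0.000114), a 1.56-fold difference of the means that lay under the fold threshold.

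Pdgfb, the pericyte-recruiting ligand, was low in CD45- cells, with 37.2, 36.8, 32.5, 15.9 and 35.9 in 66cl4 libraries. It was at 49.1, 93.8, 52.7, 47.7 and 19.4 in those of 67NR. The groups overlapped, and the log2 fold change of -0.70 (SE 0.346, edgeR adjusted p = 0.0887) did not pass the test. The highest and lowest 67NR values of Pdgfb came from animals 4 and 7, which had the highest and lowest endothelial sums. These animals also had the highest and lowest mural (5912 and 1734) and macrophage (4880 and 1391) sums of the group. The same held for the T cell, NK cell and dendritic cell lists. The part of any cell type in the Pdgfb levels was not tested.

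The second question was how the family differed between immune cells of the tumours. In CD45+ cells Pdgfc had far lower levels in 66cl4 tumours, which is given as a description. None of the other members that were tested passed both thresholds. Of the 6 genes, 5 passed the filter on low counts, and 1 was called, where 11.8% of all 14676 genes tested were called, 5.01% higher and 6.82% lower. The one called is Pdgfc, by which the family was chosen, so nothing is read from this count. Its levels were 25.04, 24.8, 25.1, 26.3 and 45.6 in 66cl4 CD45+ libraries. In 67NR CD45+ libraries they were 275, 306, 192, 217 and 317. The groups did not overlap. The mean of 261 ± 54.7 (SD, n = 5) in 67NR was 8.89-fold that of 29.4 ± 9.11 (SD, n = 5) in 66cl4, and the log2 fold change was -3.12.

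Several immune lists moved with Pdgfc between the CD45+ groups. Of the mast cell list, 7 of 8 genes were lower and 1 was higher in 66cl4, with a median of -3.18, and of the NK cell list 4 of 4 were lower, with a median of -2.57. All genes tested had a median of 0.0098. Mcpt4, a mast cell protease, fell by 3.97 (SE 0.394, edgeR adjusted p = 0.000139) and Klrb1c, a receptor gene of NK cells, fell by 2.71 (SE 0.551, edgeR adjusted p = 0.00634). The mast cell list summed to between 23709 and 31363 in 67NR CD45+ libraries and to between 3928 and 12849 in those of 66cl4. In 67NR CD45- libraries the same sum ran from 590 in animal 1 to 22699 in animal 7, whereas Pdgfc was 239 and 253 in these libraries. Of the macrophage list 1 of 12 genes was called higher and 1 lower (DESeq2 called 2), with a median of -0.22. In edgeR 8 of the 12 had an adjusted p under 0.05 at any fold, and the list ran from -1.11 to 1.04 in log2. Of the neutrophil list 5 of 9 were higher and 0 lower in 66cl4. For that list DESeq2 called 7, and in edgeR 7 had an unadjusted p under 0.05. The part of cell composition in the Pdgfc difference was not tested.

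Pdgfb, the ligand with the highest mean level per length in CD45+ cells of both tumours, although not in every 67NR library, gave 417, 308, 612, 305 and 368 normalised counts in 66cl4 CD45+ libraries. The 67NR libraries gave 186, 269, 248, 237 and 418. The groups overlapped through 67NR animal 7. The log2 fold change was 0.58 (95% interval 0.09 to 1.07, edgeR adjusted p = 0.0857), so a difference was not detected after adjustment, and a change of up to about 1.07 is within the interval. Platelets, a classical source of PDGF, were followed by a list of 10 genes, of which 3 were tested in CD45+ cells and 0 were called by edgeR (1 had an unadjusted p under 0.05; DESeq2 called 2). Among 67NR CD45+ libraries the summed platelet list was highest in animal 6, at 1261, where Pdgfb was 237. It was lowest there in animal 7, at 186, where Pdgfb was 418. Among 66cl4 CD45+ libraries the sum was highest in animal 5, at 1057, where Pdgfb was also highest, at 612. It was lowest in animal 7, at 298, where Pdgfb was 368. The part of platelets in the Pdgfb levels was not tested.

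Pdgfa was at 73.7, 80.3, 105, 89.4 and 114 in 66cl4 CD45+ libraries and at 136, 153, 102, 74.3 and 96.7 in 67NR CD45+ libraries. The groups overlapped, with a log2 fold change of -0.27 (95% interval -0.76 to 0.23, edgeR adjusted p = 0.440). Pdgfd had at most 3 estimated counts in any 66cl4 CD45+ library, and in 67NR CD45+ libraries it had 10 in animal 1, 1 in animal 6 and 0 in the others. It did not pass the filter, and at this depth a difference was not detectable (two-sided exact permutation test, p = 0.881; ratio of 66cl4 to 67NR 0.322, and 3.62 without 67NR animal 1).

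Receptor RNA was present in CD45+ libraries at low levels and differed widely between animals. Pdgfra was at 40.3, 202, 112, 240 and 302 in 66cl4 and at 665, 808, 403, 232 and 160 in 67NR CD45+ libraries. The fibroblast list in the same libraries summed to 540, 748, 713, 717 and 1523 in 66cl4 and to 2655, 3397, 1635, 1124 and 989 in 67NR. In 67NR the animals stood in the same order by Pdgfra and by this sum, and in 66cl4 the lowest and highest library were the same in both. The mural list gave the same order in 67NR, but in 66cl4 its highest sum was in animal 5, at 832. The epithelial list had the same lowest and highest library in 66cl4, at 624 and 969, but in 67NR its highest sum was in animal 1, at 328. The log2 fold change of Pdgfra was -1.33 (SE 0.560, edgeR adjusted p = 0.117). When all 20 libraries entered the fit it was -1.30 with edgeR's adjusted p = 0.0214, past both thresholds, and the count of called members rose from 1 to 2. Pdgfrb was at 47.3, 140, 82.9, 104 and 145 in 66cl4 and at 74.9, 148, 66.1, 27.6 and 43.2 in 67NR CD45+ libraries, with a log2 fold change of 0.54 (95% interval -0.41 to 1.48, edgeR adjusted p = 0.415). Of the 11 tested fibroblast genes 5 were lower and 2 higher in 66cl4 CD45+ cells, with a median of -1.75. The part of stromal or tumour cell RNA in the receptor levels of CD45+ libraries was not tested.

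**Figure D3:**
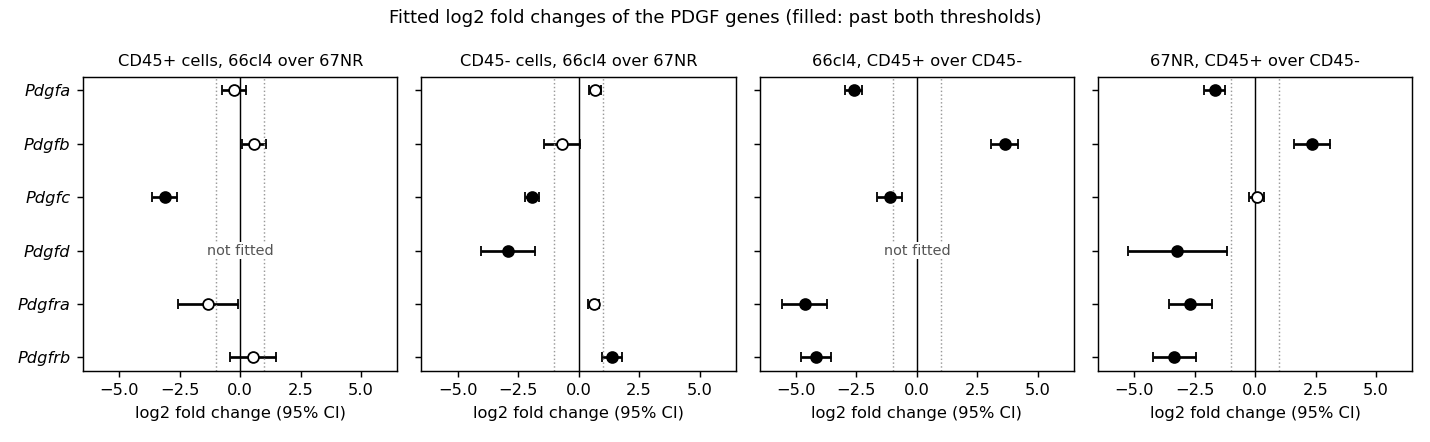
Fitted log2 fold change of each PDGF gene with its 95% interval in the 4 comparisons, filled where it passed both thresholds, with dotted lines at -1 and 1. Pdgfd was removed by the low count filter in 2 comparisons and passed it through 1 group alone in the other 2. The Pdgfc values of the leftmost and rightmost panels are those by which the family was chosen. Their intervals and fill are not read as tests.

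The third question was where each gene lay between the gates. In 66cl4 tumours Pdgfb was higher in CD45+ cells, and Pdgfa, Pdgfc, Pdgfra and Pdgfrb were lower. All 5 members that passed the filter were called, where 44.4% of all 14916 genes tested were called. Pdgfb was 12.7-fold higher in CD45+ cells, at 402 ± 126 against 31.7 ± 8.98 (SD, n = 5 each), with a log2 fold change of 3.63 (SE 0.257, edgeR adjusted p = 7.36e-08). Within single animals the ratio was 8.36 to 19.1. Pdgfa was lower by 2.61 on the log2 scale (edgeR adjusted p = 1.81e-08), at 92.5 ± 16.9 against 559 ± 74.1 (SD, n = 5 each). Pdgfra fell by 4.64 (SE 0.420, edgeR adjusted p = 1.02e-06) and Pdgfrb by 4.16 (SE 0.282, edgeR adjusted p = 8.05e-08), each in 5 of 5 animals.

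Pdgfc in 66cl4 fell by 1.12 on the log2 scale in CD45+ cells (SE 0.235, edgeR adjusted p = 0.000874) and was lower in the CD45+ library of 5 of 5 animals. This comparison shares its CD45+ libraries with the one by which the gene was chosen. Without animals 5 and 6 it fell by 0.83 (edgeR adjusted p = 0.0449), under the fold threshold. Pdgfd, at 0 to 2.54 in CD45+ and 1.06 to 6.99 in CD45- libraries of 66cl4, did not pass the filter (two-sided exact permutation test, p = 0.0635).

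In 67NR tumours the same direction was found for Pdgfb, Pdgfa, Pdgfra and Pdgfrb, and all 4 were called between the gates, where 39.8% of all 15063 genes tested were called. Pdgfc is given as a description, and Pdgfd passed the filter only through the CD45- group, where it is high. Pdgfb was 5.17-fold higher in CD45+ cells, at 272 ± 87.3 against 52.5 ± 26.6 (SD, n = 5 each), with a log2 fold change of 2.35 (SE 0.340, edgeR adjusted p = 9.00e-05) and ratios of 2.87 to 21.5 within animals. Pdgfa fell by 1.67 (SE 0.195, edgeR adjusted p = 1.70e-05). Pdgfra fell by 2.69 (SE 0.403, edgeR adjusted p = 0.000120), and Pdgfrb fell by 3.34 (SE 0.400, edgeR adjusted p = 2.27e-05). Each of these 3 was lower in 5 of 5 animals. For Pdgfd, with 10, 0, 0, 1 and 0 estimated counts in CD45+ libraries, the fitted log2 difference was -3.22 (SE 0.926), and -6.09 without 67NR CD45+ animal 1, so the size is set by 1 library. Pdgfc alone had like levels in both gates, with a log2 difference of 0.06, with more RNA in the CD45+ library for 3 of 5 animals and less for 2.

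The CD45+ level of Pdgfra was 4.03% of its CD45- level in 66cl4 and 15.4% in 67NR tumours, and that of Pdgfrb was 5.60% and 9.80%. For comparison, the 12 fibroblast genes lay at 3.54 to 669% in 66cl4, with a median of 7.91%, and at 5.95 to 97.0% in 67NR, with a median of 11.1%. These ranges are wide, and they also hold Pdgfa in both tumours, at 16.6% and 31.4%, and Pdgfc in 66cl4, at 46.4%, so a place within them does not set the receptors apart. In 67NR Pdgfc lay at 105%.

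**Figure D4:**
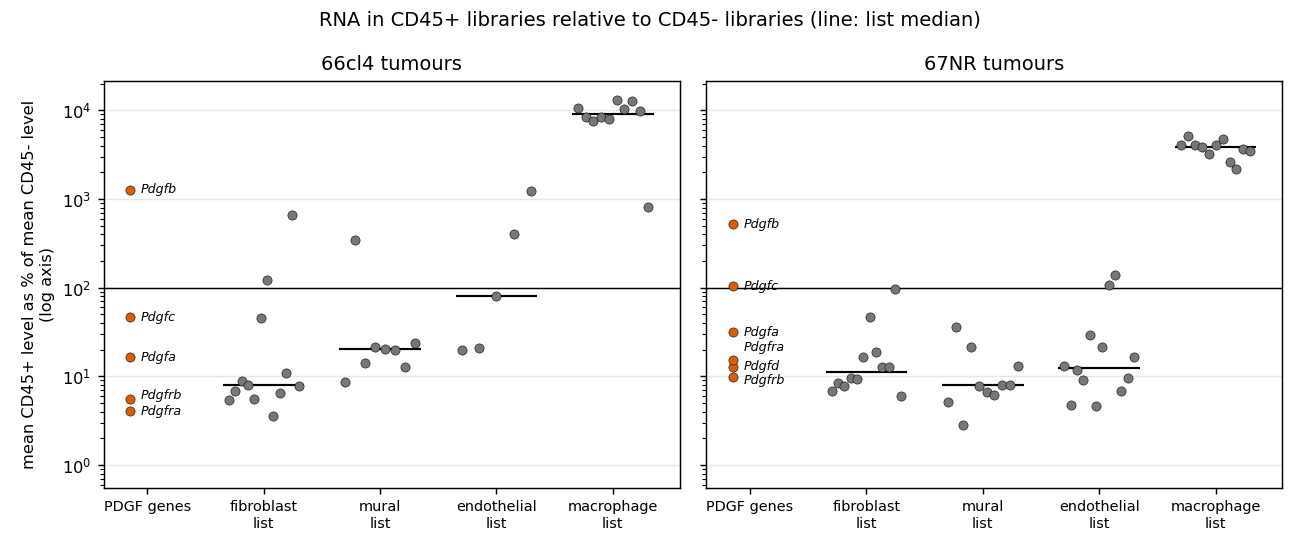
Mean level in CD45+ libraries as a percent of that in CD45- libraries (log axis) for the PDGF genes and for genes of 4 marker lists, for genes with a mean of at least 10 in CD45- libraries and above 0 in CD45+ libraries, with a line at 100% and a short line at each list median. Pdgfra at 4.03% and 15.4% and Pdgfrb at 5.60% and 9.80% lie beside fibroblast medians of 7.91% and 11.1%, Pdgfb lies above 100% and under the macrophage median, and Pdgfc lies at 46.4% in 66cl4 and 105% in 67NR.

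The tumour effect was then compared between the gates as an interaction over all 20 libraries, where an adjusted p-value under 0.05 was the threshold and 43.1% of all 16453 genes tested passed. Of the 5 members other than Pdgfc, 3 passed. For Pdgfa the log2 fold change between tumours was 0.93 lower in CD45+ than in CD45- cells (interaction -0.93, SE 0.242; edgeR adjusted p = 0.00447). For Pdgfra the interaction was -1.92 (SE 0.567, edgeR adjusted p = 0.0106), with 66cl4 at the higher level in CD45- cells and at the lower mean in CD45+ cells. For Pdgfb it was 1.28 (SE 0.442, edgeR adjusted p = 0.0247), and this call was lost with the animal as a replicate block (1.25, edgeR adjusted p = 0.0504), with no filter (1.22, edgeR adjusted p = 0.0577) and without 66cl4 animals 5 and 6 (1.01, edgeR adjusted p = 0.116). It was also lost without any 1 of the libraries 66cl4 CD45- animal 6, 66cl4 CD45+ animal 5 or 67NR CD45- animal 4 (edgeR adjusted p = 0.0543, 0.0717 and 0.0892). For Pdgfc the interaction was -1.17, given as a description. For Pdgfrb it was -0.80 (SE 0.477, edgeR adjusted p = 0.182). For Pdgfd it was 1.80 (SE 1.51, edgeR adjusted p = 0.352), and 4.63 without 67NR CD45+ animal 1. CD45+ libraries held 0 to 3 estimated counts of Pdgfd in 66cl4 and 10, 0, 0, 1 and 0 in 67NR. The size is thus set by 1 library, and neither value of Pdgfd is read as a test.

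To compare the genes with one another, levels were divided by transcript length and given as TPM (counts per transcript length, scaled to the same sum in every library, here with the longest reference transcript). In 66cl4 CD45- cells the order was Pdgfra at 62.5 TPM, Pdgfrb at 32.9, Pdgfa at 25.97, Pdgfc at 1.72, Pdgfb at 1.04 and Pdgfd at 0.105. Pdgfrb and Pdgfa overlapped between libraries and changed places with the median transcript length, as did Pdgfc and Pdgfb. In 67NR CD45- cells the order was Pdgfra at 40.0 TPM, Pdgfa at 15.9, Pdgfrb at 12.5, Pdgfc at 6.52, Pdgfb at 1.67 and Pdgfd at 0.762, where Pdgfa, Pdgfrb and Pdgfc overlapped each with the next, as did Pdgfb and Pdgfd.

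In 66cl4 CD45+ cells Pdgfb led with 13.1 TPM, above every library's value of the other members. Pdgfa followed with 4.30 TPM, Pdgfra with 2.50, Pdgfrb with 1.85 and Pdgfc with 0.807, each overlapping with the next, and Pdgfd was last with 0.0346. With the median transcript length Pdgfa and Pdgfra changed places. In 67NR CD45+ cells Pdgfb at 8.75 TPM, Pdgfc at 6.91, Pdgfra at 5.96 and Pdgfa at 5.00 overlapped each with the next, and with the median transcript length Pdgfra stood first. Pdgfrb at 1.21 and Pdgfd at 0.0853 were the lowest there.

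The make-up of the ligand RNA was thus different in each group, as shares of the summed TPM of the 4 ligands. In CD45- cells Pdgfa made up 89.9 ± 1.65% in 66cl4 and 64.1 ± 3.52% in 67NR (SD, n = 5 each). Pdgfc made up 6.05 ± 1.37% and 26.3 ± 2.33% (SD, n = 5 each) of the ligand TPM in the same groups. In CD45+ cells Pdgfb made up 71.1 ± 6.01% in 66cl4 and 41.4 ± 8.33% in 67NR, and Pdgfc 4.54 ± 1.47% and 33.4 ± 2.93% (SD, n = 5 each). The shares of Pdgfa were close between the CD45+ groups, at 24.2 ± 4.63% and 24.7 ± 6.07% (SD, n = 5 each). The tumours did not overlap in the Pdgfa share of CD45- libraries, in the Pdgfb share of CD45+ libraries or in the Pdgfc share of either gate. The summed ligand TPM was 28.8 ± 2.48 and 24.9 ± 3.02 in CD45- and 18.2 ± 4.73 and 20.7 ± 5.08 in CD45+ libraries of 66cl4 and 67NR (SD, n = 5 each), with overlap between the tumours in both gates. The summed receptor TPM was 95.4 ± 10.2 in 66cl4 and 52.5 ± 9.46 in 67NR CD45- libraries (SD, n = 5 each), without overlap. These sums and shares are descriptions.

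**Figure D5:**
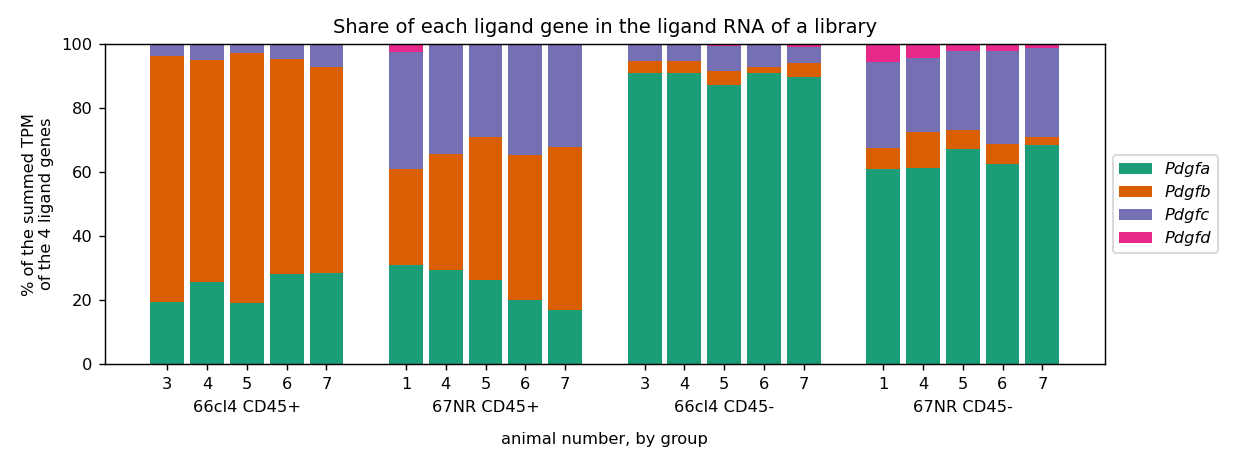
Share of each ligand gene in the summed TPM of the 4 ligand genes, 1 bar per library, grouped by tumour and gate. Pdgfa fills 87.2 to 91.0% of the 66cl4 CD45- bars, Pdgfb fills 64.4 to 78.0% of the 66cl4 CD45+ bars, and Pdgfc takes 23.4 to 36.8% in every 67NR bar.

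Genes around the family were followed by 4 lists, whose counts stand against 32.2% of all genes called between the tumours in CD45- cells and 11.8% in CD45+ cells. Among 9 extracellular partners (activating proteases, their inhibitor, co-receptors and ligand-binding proteins), 1 was higher and 4 were lower in 66cl4 CD45- cells, with a median log2 fold change of -0.99. Plat, tissue plasminogen activator, which activates PDGF-C, rose by 1.498 (SE 0.104, edgeR adjusted p = 2.01e-08). Plau, urokinase, which activates PDGF-D, fell by 1.93 (SE 0.519, edgeR adjusted p = 0.00723), and Pdgfrl, a receptor-like gene of the family, fell by 3.91 (SE 0.280, edgeR adjusted p = 2.68e-08). In CD45+ cells 1 of 8 tested partners was called, Sparc, a matrix protein that binds PDGF-B, which fell by 2.30 (SE 0.516, edgeR adjusted p = 0.0104) beside the fibroblast list. Between the gates of 66cl4, Plau was 5.92 higher on the log2 scale in CD45+ cells (SE 0.526, edgeR adjusted p = 8.76e-07) and Plat had a log2 fold change of -4.14 (SE 0.273, edgeR adjusted p = 4.44e-08).

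Of 12 genes of receptor signalling, such as the adaptor Grb2 and the kinase Src, 0 were called between the tumours in CD45- cells by edgeR and 0 by DESeq2, although 9 had an unadjusted p under 0.05 and 9 an adjusted one under 0.05 at smaller folds. Their log2 fold changes ran from -0.84 to 0.99. In CD45+ cells 1 was called, Src, which fell by 1.16 (SE 0.300, edgeR adjusted p = 0.0167). Of 8 genes that restrain the pathway, Spry1 rose by 4.15 (SE 0.139, edgeR adjusted p = 1.43e-11) and Spry4 fell by 1.62 (SE 0.178, edgeR adjusted p = 2.18e-06) in 66cl4 CD45- cells. The same 2 feedback inhibitors of the Ras pathway were the called ones in CD45+ cells, with Spry1 up by 1.79 (SE 0.401, edgeR adjusted p = 0.00960) and Spry4 down at -1.72 (SE 0.371, edgeR adjusted p = 0.00684).

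Of 12 early genes that growth factors induce, 0 were higher and 4 lower in 66cl4 CD45- cells, a share like the 32.2% of all genes called there (edgeR; 4 had an unadjusted p under 0.05, and DESeq2 called 4). Ccl2, a monocyte chemokine, fell by 2.55 (SE 0.306, edgeR adjusted p = 2.55e-05) and Cxcl1, a neutrophil chemokine, by 2.18 (SE 0.315, edgeR adjusted p = 0.000106). In CD45+ cells 3 of the 12 were higher and 0 lower in 66cl4 (6 had an unadjusted p under 0.05, and DESeq2 called 3), with Egr3 at 1.70 (SE 0.190, edgeR adjusted p = 0.000179) and Egr2 at 1.07 (SE 0.230, edgeR adjusted p = 0.00693), both transcription factors. Median log2 fold changes of this list were 0.0024 in CD45- and 0.40 in CD45+ cells. Many other signals induce these genes, and PDGF protein was not measured.

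The genes whose pattern over the 20 libraries was most like each member were found by the root mean square difference of centred log2 CPM over 16453 genes. They were Ccnd1, Agrn and Thra for Pdgfa (0.215 to 0.221), Ppp1r13b, Arrb1 and Prkcd for Pdgfb (0.335 to 0.440), and Gas1, Kirrel and Efna1 for Pdgfra (0.281 to 0.298). For Pdgfrb they were Nhsl1, Lama5 and Col18a1 (0.348 to 0.367). The nearest genes of Pdgfc were farther away, C2, Chst2 and Tulp2 (0.594 to 0.666), as were those of Pdgfd, Tmem255a, Robo4 and Pcdh12 (0.532 to 0.656), of which Robo4 encodes a receptor of endothelial cells and stands in the endothelial list. Within 0.5 on this scale there were 314 genes for Pdgfa, 86 for Pdgfra, 16 for Pdgfrb and 14 for Pdgfb, and 0 for Pdgfc and Pdgfd. The members differ in how much they vary and how well they were counted, and their distances are not compared with one another.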

How the data were processed

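RNA of sorted CD45+ and CD45- cells was sequenced in 20 libraries. The authors trimmed the reads, estimated transcript counts with Salmon 1.3.0, used tximport to sum them per gene, and deposited the estimated counts of 52783 genes, not normalised. GRCh38 is named in the methods although the identifiers are of mouse genes, so no coordinates were taken from the files. Symbols for 51492 identifiers came from a mouse reference. Estimated counts were rounded, which changed no value by more than 0.5. No sample column was left unused.

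Groups followed the sample titles. Comparisons used edgeR 4.0.16 in R 4.3.3 (quasi-likelihood test, TMM, robust fit, filterByExpr by group at 10 counts and a total of 15) on the groups compared, and all 20 libraries for the interaction, with Benjamini-Hochberg adjustment over all genes. Levels are counts divided by size factors of DESeq2 1.42.0. Genes under the filter were compared by exact permutation of the 252 splits, whose smallest p is 0.00794. TPM used reference transcript lengths, and genes without a length (1291) took 2.58% of counts. Figures were drawn with matplotlib 3.10.9.

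The members and lists were chosen with earlier results of these data known. The genes named are the 6 members, Ptprc, at most the 2 highest and 2 lowest called genes of a list in a comparison, and the 3 genes nearest to each member. The lists for T, B and dendritic cells were also computed. In CD45+ cells edgeR called 0 of 8 T cell genes (0 had an unadjusted p under 0.05 and DESeq2 called 0), 0 of 5 B cell genes (2 unadjusted, DESeq2 1), and 1 of 6 dendritic cell genes higher and 1 lower. Gates of the same tumour and number share an animal and are paired by design. Deviations from group means correlated at 0.0251 to 0.148 between the gates of 66cl4 animals and at -0.00326 to 0.324 between those of 67NR animals. The alternatives covered the test (DESeq2's Wald test), RLE factors, the filter (none, or 10 counts in 5 libraries) and a fit over all 20 libraries. A block by animal number, omission of 66cl4 animals 5 and 6 or of each library in turn, and CPM and TPM for levels were also run. Total counts as library sizes were added after the data were seen. The tests across genes were tried on simulated counts.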

Additional observations from a re-analysis of the deposited data

Results flagged for a closer look

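In each group of 5 libraries, the highest and lowest value of each member were set against the other 4, and 3 of 24 groups had a value far from the rest, where chance gives about 1 in 20, or 1.2 of 24. Pdgfb was 15.9 in 66cl4 CD45- animal 6, against 32.5 to 37.2 in the other animals. This animal is one whose title and cell type field name opposite gates. Pdgfc was 45.6 in 66cl4 CD45+ animal 7, against 24.8 to 26.3. The same library had the highest fibroblast (1523), epithelial (969) and T cell (7292) sums of its group. It had the lowest neutrophil (44355), mast cell (3928), dendritic cell (2623) and platelet (298) sums. The part of any of these in the Pdgfc value was not tested. Pdgfd was 15.6 in 67NR CD45+ animal 1, which rests on 10 estimated counts, against 0 to 1.198.

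The tumour effect differed between the gates for 3 members in edgeR's interaction test (log2, CD45+ minus CD45- cells). The differences were -0.93 for Pdgfa, 1.28 for Pdgfb and -1.92 for Pdgfra. For Pdgfc the difference was -1.17, a value given without a test because the gene was chosen for its pattern in these groups.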

How the results depend on the processing

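Counts of called genes stayed within 1.5 times the reported ones in all 98 alternatives run, and 541 alternative log2 fold changes of members kept their direction and their side of the thresholds, with the exceptions given here. With all 20 libraries in the fit, 2 members in place of 1 were called between CD45+ groups, through Pdgfra at -1.30. Without 66cl4 animals 5 and 6, Pdgfc between the gates of 66cl4 was -0.83, under the fold threshold. The members called without them were 1 between CD45+ groups, 3 between CD45- groups and 4 between the gates of 66cl4. The interaction of Pdgfb lost its call with no filter (1.22), with the replicate block (1.25) and without animals 5 and 6 (1.01), and ran from 0.88 to 1.49 when single libraries were left out. The cause was not tested. That of Pdgfd ran from 1.16 to 4.63 and was past the threshold only without 67NR CD45+ animal 1. At such low counts this is not read as a test. The replicate block, which pairs the gates by animal within a tumour and in the interaction, changed no other call of a member. Between tumours it joins different animals that share a number, so it is no check of those comparisons. Pdgfc between the gates of 67NR ran from -0.0057 to 0.16 in log2 and from 0.990 to 1.12 as a ratio of levels, changing sign without 67NR CD45+ animal 4 and animal 7 in turn. The ratio of Pdgfd between CD45+ groups ran from 0.214 to 3.62, changing direction without 67NR animal 1, and between the gates of 67NR it was 0.0115 without that library, which held 10 of the 11 counts of its group. The ratio of Pdgfc between CD45- groups was 0.223 without 66cl4 animals 5 and 6. Depth limits Pdgfd, with at most 10 counts in any CD45+ library.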
